A study of Mus musculus with 12 samples.

Results

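The interferon-stimulated genes described here are 35 genes picked by symbol from the liver count tables of wild-type and Rev-erbα-/- mice. A gene was kept if at least 3 libraries held 10 or more of its reads. All 35 symbols met this rule, as did 14532 of the 38926 gene symbols in the tables, and all 35 were among the 14488 genes that entered the tests. Interferons are cytokines of the antiviral and antibacterial response. Type I interferons signal through the receptor Ifnar1/Ifnar2 and the kinases Jak1 and Tyk2 to a complex with Stat2 and Irf9 that binds the interferon-stimulated response element (ISRE), whereas interferon-γ acts through the γ-activated site (GAS). The target genes encode sensors of viral nucleic acids, proteins that block viral replication or translation, GTPases that attack vacuoles holding pathogens, and factors of the pathway itself, and many of them are expressed at a basal level in liver without infection.

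RNA was sequenced from the livers of 12 mice aged 12 weeks, on a mixed 129Ola/C57BL6 background, with 3 animals in each of 4 groups. The groups were wild-type at ZT8, Rev-erbα-/- at ZT8, wild-type at ZT20 and Rev-erbα-/- at ZT20, where ZT is the time in hours after lights on. No agent was given. The Rev-erbα-/- animals lack the nuclear receptor REV-ERBα (gene Nr1d1) in the whole body, so that liver-intrinsic and systemic changes cannot be told apart.

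Between 17641809 and 26060192 reads per library were counted on genes, and levels are given as CPM (read counts scaled to a common library size with TMM factors). Alignments to more than 1 place, which were not counted, numbered between 1.24 and 3.28 per counted read. Summed over 8 hepatocyte markers, the libraries held between 52931 and 108002 CPM, against 446 to 772 CPM over 12 markers of Kupffer cells and macrophages, as liver tissue would give, and 7 neutrophil markers (3 of them tested) summed to between 1.76 and 10.5 CPM, with no read of Ly6g in any library. In bulk tissue, fewer cells of a type and less RNA per cell cannot be told apart. Reads of Nr1d1 remained in Rev-erbα-/- livers at ZT8 (63.0, 71.9 and 80.6 CPM, against 129, 96.2 and 75.3 CPM in wild-type), and a count per gene symbol does not tell an intact from a disrupted transcript. Arntl, a clock gene that REV-ERBα represses, separated the genotypes at ZT8, with 0.796, 0.448 and 0.712 CPM in wild-type and 24.3, 25.7 and 22.7 CPM in Rev-erbα-/-. In wild-type replicates 1, 2 and 3 at ZT8, the hepatocyte markers summed to 77223, 59987 and 52931 CPM. Those of Kupffer cells and macrophages summed to 509, 655 and 772 CPM. Alignments to more than 1 place were 1.76, 2.89 and 3.28 per counted read in these livers. Wild-type replicates 2 and 3 at ZT8 stood apart in acute phase transcripts, since Saa1 was at 60.8, 4972 and 6489 CPM and Saa2 at 13.6, 4849 and 6137 CPM in replicates 1, 2 and 3. The calls at ZT8 are therefore also given without these 2 libraries, in a fit that keeps 1 wild-type liver at ZT8 and in which 2.29% of all genes passed there.

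The ISRE is the sequence through which most of these genes answer to interferon, and its core, GAAANNGAAA on either strand, was searched in RefSeq promoter windows (GRCm38.p6, 250 bases before to 50 bases after the start). Of the 35 genes, 26 were in the promoter table, and 17 of the 26 (65.4%) held the core, against 3.99% of the 27025 genes in the table. The 17 were Stat2, Ddx58, Ifih1, Ifit1, Ifit3, Oas1a, Oas1g, Rsad2, Isg15, Igtp, Irgm1, Irgm2, Gbp2, Gbp3, Gbp7, Bst2 and Trim30a. The GAS core, TTCNNNGAA, was in 7 of the 26 (26.9%), namely Irf1, Ifit2, Oas1a, Igtp, Irgm2, Gbp7 and Bst2, against 9.55% of all genes. The element bound by REV-ERBα itself (RORE), searched as AANTAGGTCA on both strands, was in 0 of 26 and in 0.259% of all genes, and the clock E-box, CACGTG, was in 0 of 26 and in 8.09% of all genes. These matches describe the letters in the windows and are not binding sites. The cores of different motifs were not compared for overlap.

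The windows below belong to the 3 genes that passed a test between groups and held an ISRE core. Sequences run 5′ to 3′ on the strand of the gene, with the ISRE core in capitals, and come from chr10:128270248-128270547 (plus strand) for Stat2, chr4:40239776-40240075 (minus strand) for Ddx58 and chr3:142530086-142530385 (plus strand) for Gbp7.
Stat2: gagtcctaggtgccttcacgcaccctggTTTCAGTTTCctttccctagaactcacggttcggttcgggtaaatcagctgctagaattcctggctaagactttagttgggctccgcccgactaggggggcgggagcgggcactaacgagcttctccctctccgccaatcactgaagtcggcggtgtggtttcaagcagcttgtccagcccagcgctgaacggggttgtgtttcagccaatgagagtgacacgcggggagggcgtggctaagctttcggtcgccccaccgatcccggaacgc
Ddx58: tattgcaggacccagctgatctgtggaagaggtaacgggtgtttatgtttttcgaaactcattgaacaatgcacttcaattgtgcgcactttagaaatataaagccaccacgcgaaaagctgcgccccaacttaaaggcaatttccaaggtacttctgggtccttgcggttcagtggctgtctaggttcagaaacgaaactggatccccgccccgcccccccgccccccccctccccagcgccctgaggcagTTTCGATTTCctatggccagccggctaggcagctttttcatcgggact
Gbp7: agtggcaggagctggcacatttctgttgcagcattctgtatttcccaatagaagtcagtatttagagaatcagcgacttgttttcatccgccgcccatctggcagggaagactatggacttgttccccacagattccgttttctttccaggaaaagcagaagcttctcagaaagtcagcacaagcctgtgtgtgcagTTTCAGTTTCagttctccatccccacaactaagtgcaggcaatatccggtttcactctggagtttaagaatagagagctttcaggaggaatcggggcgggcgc
Counted from the annotated start as 0, the core began at -222 in Stat2, at 2 in Ddx58 and at -53 in Gbp7, and each window held 1 core.

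Shorter stretches of 60 bases are given for Ifit1, Isg15, Ifit3 and Rsad2, whose levels differed most between single Rev-erbα-/- livers at ZT20 among the genes with a core (described further on). They lie at chr19:34640769-34640828 (plus strand), chr4:156200856-156200915 (minus strand), chr19:34583365-34583424 (plus strand) and chr12:26456538-26456597 (minus strand).
Ifit1: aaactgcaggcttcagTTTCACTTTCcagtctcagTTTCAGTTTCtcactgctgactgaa
Isg15: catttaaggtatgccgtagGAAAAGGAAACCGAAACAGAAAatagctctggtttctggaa
Ifit3: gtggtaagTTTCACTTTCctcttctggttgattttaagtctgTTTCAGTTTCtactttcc
Rsad2: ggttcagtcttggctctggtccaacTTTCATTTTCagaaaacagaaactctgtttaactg
Ifit1 and Ifit3 held 2 cores each, Isg15 held 3 overlapping cores, read as 1 run of capitals, and Rsad2 held 1.

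Per kb of exon sequence, Bst2, a membrane protein that tethers budding virus, had the highest level of the 35 genes with 128.0 CPM per kb over the 12 libraries. The immunity-related GTPases Iigp1 and Igtp followed with 52.2 and 24.2 CPM per kb. At the other end, Oas1g, which belongs to the family of 2′-5′ oligoadenylate synthetases, was at 0.336 CPM per kb, the myxovirus resistance gene Mx1 at 0.449 CPM per kb and Ifi44 at 0.648 CPM per kb. Oas1a and Oas1g are close copies, as are Ifit3 and its neighbour Ifit3b, and Igtp overlaps Irgm2. Reads shared by such genes were left uncounted, so the levels of these genes may be too low. Reads were counted without regard to strand, and Irf7, Irf9 and Rtp4 overlap Phrf1, Rnf31 and Masp1. Mx2 is annotated as a polymorphic pseudogene.

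**Figure D1:**
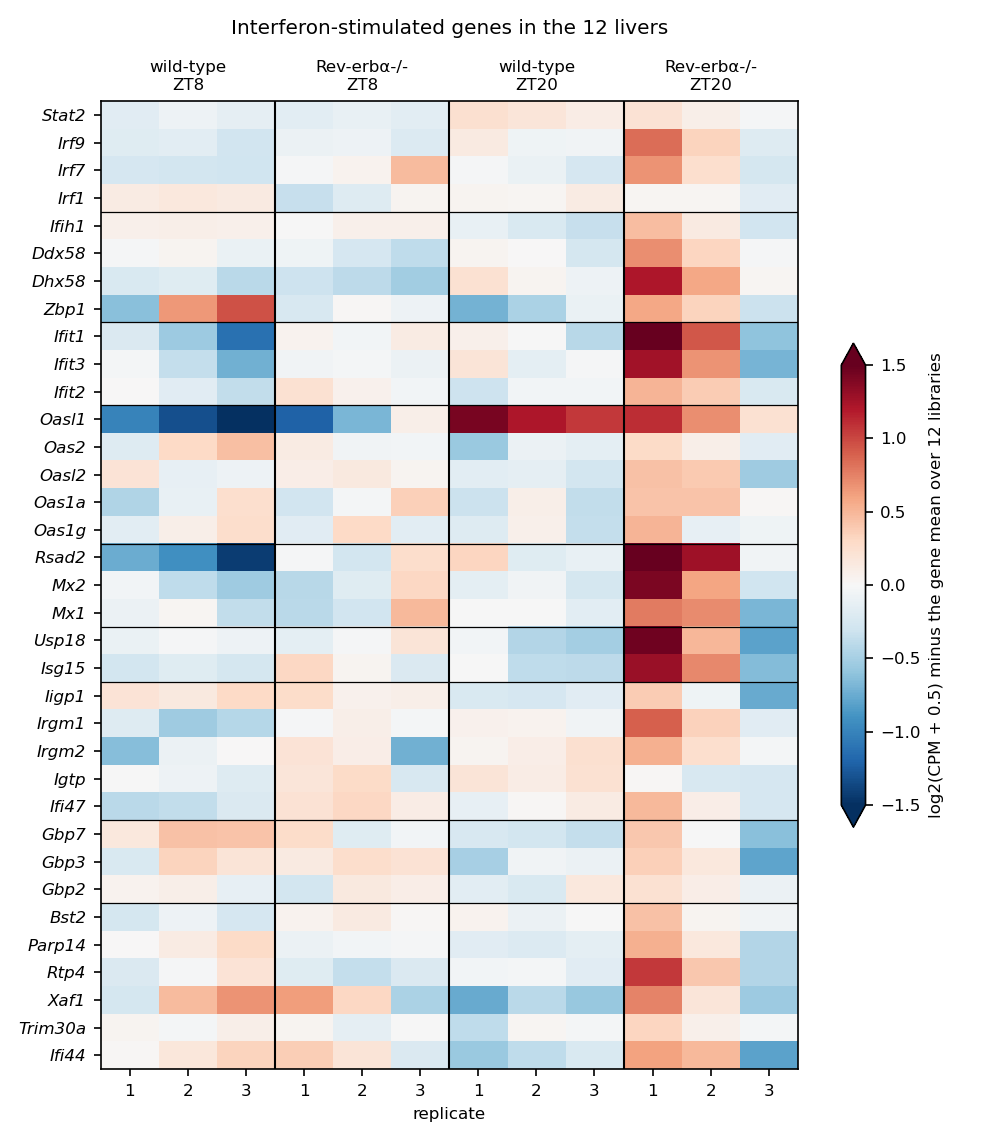
Level of each of the 35 interferon-stimulated genes (rows, grouped by function) in each liver (columns, by group and replicate), as log2(CPM + 0.5) minus the mean of the gene over 12 libraries, with colours ending at 1.5 in either direction. The column of Rev-erbα-/- replicate 1 at ZT20 is red for nearly all genes and that of replicate 3 blue for most, while Oasl1 differs between the times in both genotypes.

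At ZT20, the 3 Rev-erbα-/- livers lay far apart in the interferon-stimulated genes. Replicate 1 was the highest of its group for 33 of the 35 genes, compared with 37.3% of all genes tested, and replicate 3 was the lowest for 34 of 35, compared with 36.6%. The order replicate 1, 2, 3 from high to low held for 32 genes (91.4%) and for 24.6% of all genes. Replicate 1 was the highest of all 12 livers for 27 of the 35 genes, compared with 9.05% of all genes. The ratio of the highest to the lowest liver of this group had a median of 1.97 over the 35 genes and of 1.18 over all genes, and exceeded 2 for 17 of the 35 genes (48.6%) and for 7.61% of all genes. In the other 3 groups, the same median was between 1.22 and 1.27 over the 35 genes. The labels give no meaning to the numbers of the replicates, and which library ranked where was read from the values, so that no test was made.

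Replicate 1 exceeded replicate 3 by more than 3 times for 8 of the 35 genes, and the share of all genes past this limit was not counted. The genes in this paragraph were chosen after their values were seen. Ifit1, which binds viral RNA that lacks a host cap, was at 31.2, 17.3 and 5.65 CPM in Rev-erbα-/- replicates 1, 2 and 3 at ZT20, and at 9.40, 8.85 and 6.53 CPM in wild-type. Usp18, which removes ISG15 from proteins and dampens the type I receptor, was at 23.7, 12.0 and 4.53 CPM, and at 8.05, 5.97 and 5.68 CPM in wild-type. Isg15, the ubiquitin-like modifier, was at 17.8, 11.7 and 4.22 CPM, and at 6.93, 5.22 and 5.14 CPM in wild-type. In all 3 genes, Rev-erbα-/- replicates 1 and 2 were above every wild-type liver and replicate 3 was below every one. Replicate 1 exceeded replicate 3 by 5.52 times for Ifit1, 5.22 times for Usp18 and 4.20 times for Isg15. Ifit3, Rsad2, Mx1, Mx2 and Ifi44 had ratios between 3.09 and 4.17. Other genes with an antiviral product differed less between these livers, with ratios of 1.41 for Bst2, 1.41 for Oas1a and 1.29 for Trim30a. The smallest ratios of the 35 were those of Irf1 (1.15) and Stat2 (1.18), factors that transmit the signal. Irf9 and Irf7, the other signalling factors among the 35, had ratios of 2.06 and 1.93.

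By family, the median ratio of replicate 1 to replicate 3 was 4.71 for the ISG15 system (2 genes), 4.17 for the IFIT proteins (3), 3.88 for the Mx proteins with viperin (3), 2.29 for the other effectors (6), 2.09 for the guanylate-binding proteins (3), 1.83 for the nucleic acid sensors (4), 1.83 for the OAS family (5), 1.70 for the immunity-related GTPases (5) and 1.56 for the signalling factors (4). It was 0.997 over all genes. Of 65 other interferon-stimulated genes, 42 (64.6%) had the order 1, 2, 3, with a median ratio of 1.41. Genes with an ISRE core in the window had a median ratio of 1.69 (17 genes), those with a window but no core 1.93 (9 genes) and those without a listed window 2.34 (9 genes).

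Some other features of these 3 libraries followed that order in part. The counted reads were 24595098, 26060192 and 22544592 in replicates 1, 2 and 3. Of 10 lists of cell type markers, 0 were highest in replicate 1 and 7 were lowest there, among them those of Kupffer cells and macrophages (499.9, 577 and 616 CPM, 12 of 12 tested) and of plasmacytoid dendritic cells (23.2, 24.5 and 23.9 CPM, 4 of 7 tested). The other three lists were lowest in replicate 3, as were 34 of the 35 interferon-stimulated genes. These were the markers of stellate cells (333, 337 and 260.2 CPM, 7 of 7 tested), cholangiocytes (54.8, 64.2 and 39.7 CPM, 5 of 6 tested) and dendritic cells (12.3, 13.9 and 11.3 CPM, 5 of 6 tested). Of the MHC class II genes, 0 of 8 were highest in replicate 1, with a median ratio of replicate 1 to 3 of 0.596. Alignments to more than 1 place per counted read, in contrast, had the full order 1, 2, 3 (1.56, 1.32 and 1.24), as did 11 of 20 acute phase genes. The part of these features in the gap between the livers was not tested.

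**Figure D2:**
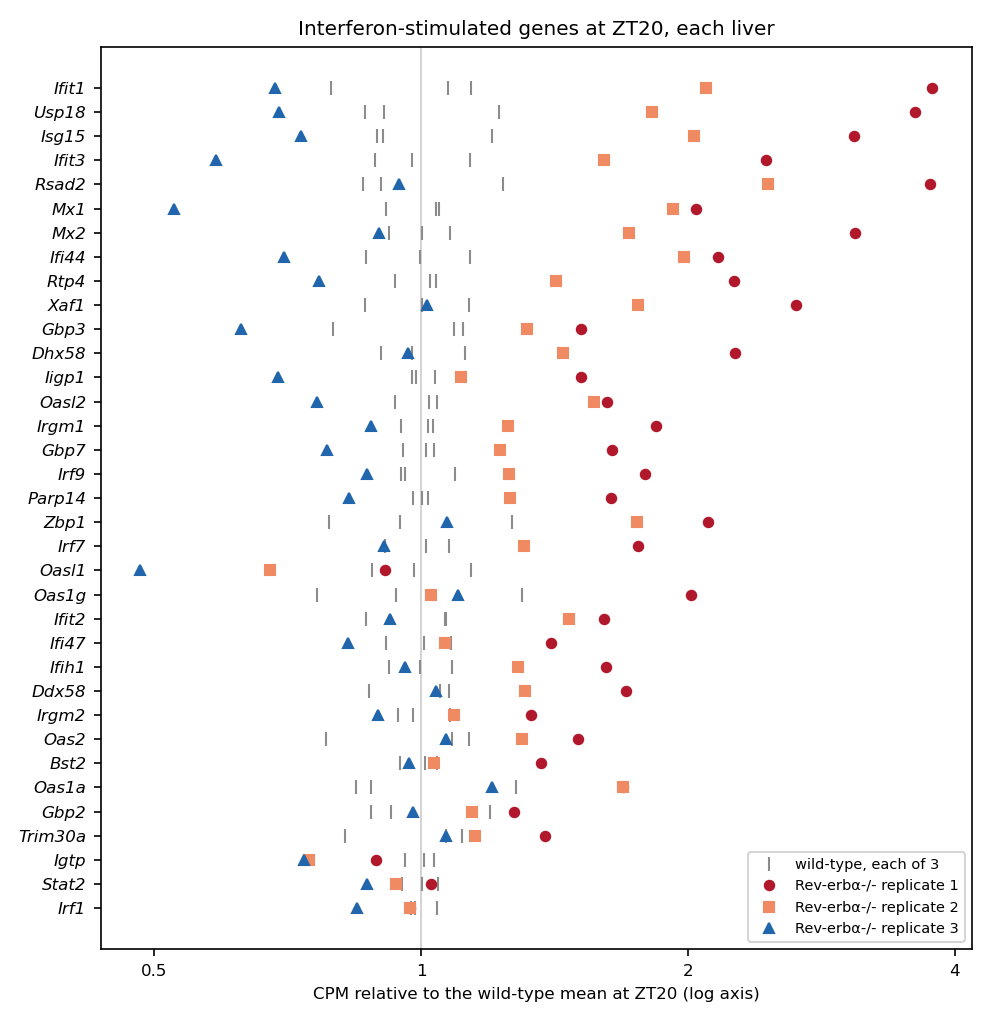
CPM of each interferon-stimulated gene in the 3 Rev-erbα-/- livers (coloured symbols) and the 3 wild-type livers (ticks) at ZT20, relative to the wild-type mean, on a log axis, with genes sorted by the ratio of Rev-erbα-/- replicate 1 to replicate 3. Rev-erbα-/- replicate 1 lies above all wild-type livers for 31 of 35 genes and replicate 2 for 27, while replicate 3 lies below all of them for 22. The shares of all genes with these positions were not counted.

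The comparison of the genotypes at ZT20 asks whether the loss of REV-ERBα alters these genes in the dark phase. Of the 35 genes, 31 had a fold change above 0 on the log2 scale and 4 below, and the median log2 fold change was 0.41 (all genes, -0.0007). None passed the threshold of 0.05 on the adjusted p in the quasi-likelihood test of edgeR, which was passed by 3.63% of all genes, and none passed with DESeq2 (4.87% of all genes). At an unadjusted p below 0.05, edgeR counted 9 of the 35, with 8 higher and 1 lower, and 14.6% of all genes. In none of the 35 were all 3 Rev-erbα-/- livers above all wild-type livers, and 2 genes, Igtp and Irf1, were lower without overlap, while 22.5% of all genes did not overlap in one or the other direction. Igtp, a GTPase of the interferon-γ response, was at 55.3, 52.5 and 56.6 CPM in wild-type and at 48.8, 41.0 and 40.4 CPM in Rev-erbα-/-. Its log2 fold change of -0.34 ± 0.12 (SE) did not pass (edgeR adjusted p = 0.161).

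This result depended on Rev-erbα-/- replicate 3. Without it, 16 of the 35 genes passed, all of them higher in Rev-erbα-/-, against 3.11% of all genes. They were Ddx58, Dhx58, Ifi44, Ifih1, Ifit1, Ifit3, Irf7, Irf9, Irgm1, Isg15, Mx2, Oasl2, Parp14, Rsad2, Rtp4 and Usp18. The largest of these changes was that of Rsad2 (viperin, an enzyme that makes a chain-terminating nucleotide), which was at 10.2, 7.08 and 7.43 CPM in wild-type and at 30.9, 20.3 and 7.78 CPM in Rev-erbα-/-. With all livers, its log2 fold change was 1.26 ± 0.44 (SE, edgeR adjusted p = 0.202), and without replicate 3 it was 1.64 ± 0.24 (edgeR adjusted p = 0.00308). Without replicate 1 instead, 0 of the 35 passed, against 2.58% of all genes, 27 had a log2 fold change above 0, and the median was 0.15. Replicate 3 was the lowest of its group for 34 of the 35 genes and replicate 1 the highest for 33. Leaving out either one therefore moves the group mean of these genes by itself. Counts without replicate 3, here and below, describe the weight of that library and do not test the genotype. Nothing in the labels sets any of these livers aside, so the fit with all 3 stands as the result.

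At ZT8, in the light phase, 1 of the 35 genes passed the test, against 8.45% of all genes. Of the 35, 19 had a log2 fold change above 0 and 16 below, with a median of 0.09 (all genes, 0.0018). Ifi47, an immunity-related GTPase at chr11:49076587-49096974, was at 17.5, 17.9 and 20.03 CPM in wild-type and at 27.1, 28.9 and 25.1 CPM in Rev-erbα-/-. All Rev-erbα-/- livers were above all wild-type livers, and the log2 fold change was 0.55 ± 0.15 (SE, edgeR adjusted p = 0.0388). The call was lost in 10 of 19 alternative fits, among them those without any 1 of the 6 livers at ZT8 or replicate 2 of either genotype at ZT20, with log2 fold changes between 0.50 and 0.62, and without both wild-type livers with high Saa1 the value was 0.62 with an adjusted p of 0.264 in edgeR. At ZT20, Ifi47 was at 21.4, 23.6 and 25.3 CPM in wild-type and at 32.9, 24.9 and 19.4 CPM in Rev-erbα-/-, which overlapped.

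DESeq2 called 3 of the 35 genes at ZT8 (10.4% of all genes), namely Ifi47, Irf1 and Oasl1. Irf1, a transcription factor of the interferon-γ response, was at 33.4, 34.5 and 33.9 CPM in wild-type and at 24.1, 26.9 and 31.6 CPM in Rev-erbα-/-. It was lower in all 3 Rev-erbα-/- livers, with a log2 fold change of -0.30 ± 0.09 (SE) that missed the threshold in edgeR (adjusted p = 0.0586) and was -0.28 without both wild-type livers with high Saa1 (edgeR adjusted p = 0.405). In all, 6 genes were higher and 2 lower without overlap at ZT8 (Bst2, Ifi47, Ifit1, Irf7, Irgm1 and Rsad2 higher, Irf1 and Parp14 lower), whereas 25.6% of all genes did not overlap. Rsad2 was at 4.62, 4.04 and 2.69 CPM in wild-type and at 7.95, 6.61 and 9.79 CPM in Rev-erbα-/-. Its log2 fold change of 1.09 ± 0.49 (SE) did not pass in edgeR (adjusted p = 0.218), nor did the value of 0.81 without both livers with high Saa1 (adjusted p = 0.747).

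The 35 genes were also compared between the wild-type livers with high Saa1 at ZT8 and the other one. The spread of the 35 was near that of all genes, with a median ratio of highest to lowest liver of 1.27 against 1.21. This ratio exceeded 2 for 1 of the 35 (2.86%) and for 9.51% of all genes. Zbp1, a sensor of Z-form nucleic acids, was at 3.18, 8.37 and 10.5 CPM in wild-type replicates 1, 2 and 3, and at 4.31, 5.22 and 4.90 CPM in Rev-erbα-/-. Xaf1 was at 5.93, 10.2 and 11.8 CPM in wild-type and at 11.4, 9.06 and 5.04 CPM in Rev-erbα-/-. Replicate 3 exceeded replicate 1 by more than 1.5 times for 6 genes (Xaf1, Zbp1, Oas1g, Irgm2, Oas2 and Oas1a) and was lower by more than 1.5 times for 4 (Ifit1, Ifit3, Rsad2 and Oasl1). The shares of all genes past these limits were not counted, and Zbp1 and Xaf1 had the highest of these ratios (3.31 and 1.99). Replicates 2 and 3 were both above replicate 1 for 17 of the 35 genes (48.6%), compared with 37.9% of all genes. The log2 fold change of Zbp1 at ZT8, -0.60 ± 0.40 (SE, edgeR adjusted p = 0.414), became 0.59 without both libraries.

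**Figure D3:**
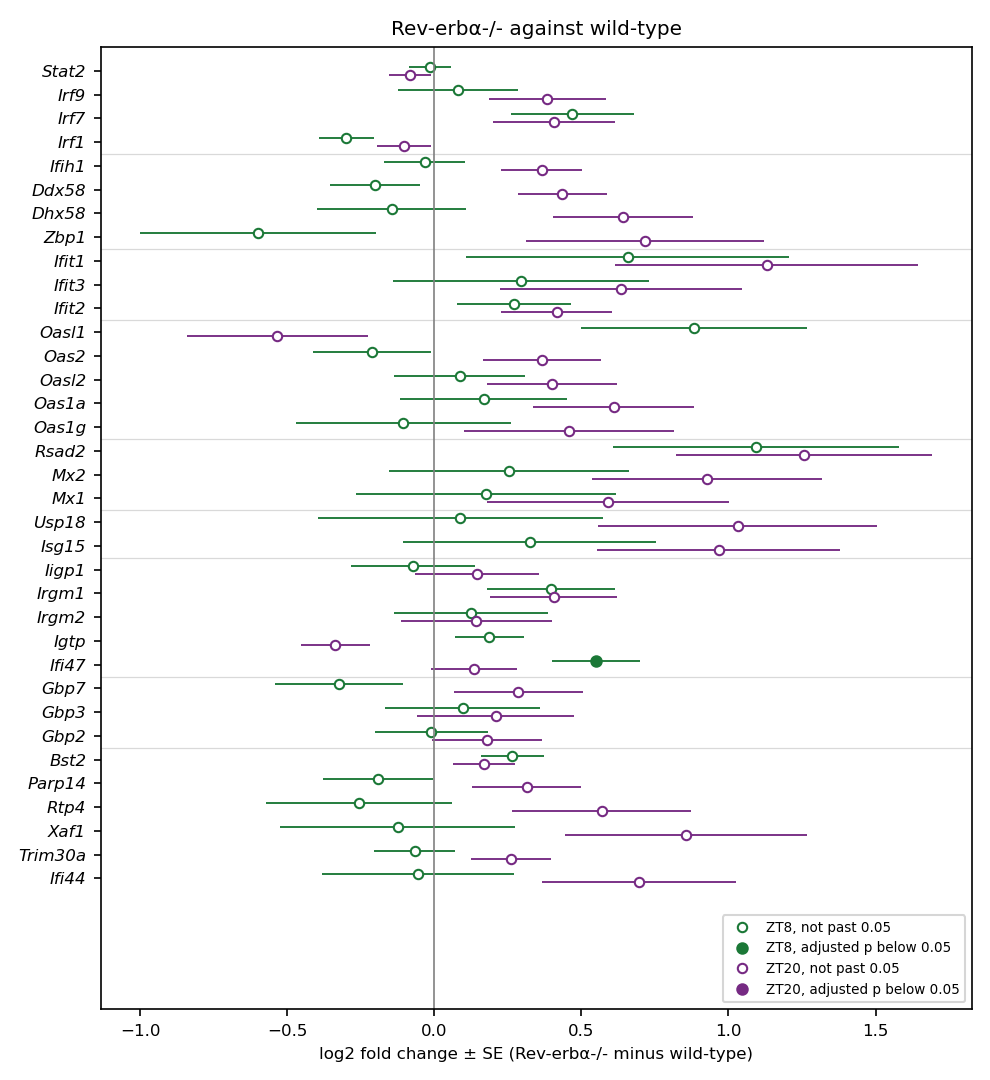
Genotype difference (log2 fold change, Rev-erbα-/- minus wild-type) of each interferon-stimulated gene, in green for ZT8 and in purple for ZT20, with the SE of the edgeR fit as bars and filled circles for adjusted p-values below 0.05. Ifi47 at ZT8 is the only filled circle, and 31 of the 35 values at ZT20 lie above 0.

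Averaged over the times, 31 of the 35 genes had a log2 fold change above 0, with a median of 0.22 (all genes, 0.0053). None passed in edgeR (6.34% of all genes), with 8 at an unadjusted p below 0.05 (20.3% of all genes), and DESeq2 called 4 (8.1% of all genes), which were Ifi47, Irf7, Irgm1 and Rsad2. Without Rev-erbα-/- replicate 3 at ZT20, edgeR called 15, all higher, and 5.92% of all genes. The difference between the genotype effect at ZT8 and that at ZT20 passed for none in edgeR (5.88% of all genes), with 5 at an unadjusted p below 0.05 (19.6% of all genes) and 1 with DESeq2, Oasl1 (7.62% of all genes). Without the same library, it passed for 9, all with the lower effect at ZT8, and for 5.17% of all genes. Without Rev-erbα-/- replicate 1 at ZT20, it passed for 2, Ifi47 and Igtp, and for 5.47% of all genes. An effect at one time and not at the other was thus not shown for any of the 35 genes with all livers in the edgeR fit.

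The comparison of ZT20 with ZT8 addresses changes between the light and the dark phase. In wild-type, 2 genes rose and 1 fell, which is 3 of 35 against 27.7% of all genes (13.8% higher and 13.9% lower), and DESeq2 called 4 (27.2% of all genes). In Rev-erbα-/-, 4 genes rose and none fell, against 17.5% of all genes (8.79% higher and 8.67% lower), and DESeq2 called 7 (17.9% of all genes). At an unadjusted p below 0.05, 1 of the 35 was lower at ZT20 in Rev-erbα-/- in edgeR, which was Igtp, and 0 of the DESeq2 calls were lower. These counts depended on the fit. With only the groups compared, 13 of the 35 passed in wild-type, against 26.8% of all genes, and 0 in Rev-erbα-/-, against 16.3% of all genes.

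Oasl1, an OAS-like protein known to limit the translation of Irf7, had the largest change with time. In wild-type it was at 3.14, 2.44 and 1.93 CPM at ZT8 and at 19.1, 16.5 and 14.8 CPM at ZT20, a rise of 2.72 ± 0.36 (SE) on the log2 scale (edgeR adjusted p = 0.000325) that held in all 19 alternative fits. In Rev-erbα-/- it was at 2.65, 4.06 and 7.25 CPM at ZT8 and at 15.3, 11.3 and 8.09 CPM at ZT20, a rise of 1.31 ± 0.34 (edgeR adjusted p = 0.0245) that was lost in 7 of 19, the fits without Rev-erbα-/- replicate 1 or 2 at either time among them. The groups did not overlap in either genotype, but the highest Rev-erbα-/- liver at ZT8 and the lowest at ZT20 were close. The difference of the genotype effects was 1.42 ± 0.49 on the log2 scale (edgeR adjusted p = 0.139). Oasl1 lies at chr5:114923240-114937915 and overlaps the transcript Gm13822.

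Stat2, the partner of Irf9 in the ISRE-binding complex, rose in both genotypes by a small amount. It was at 90.2, 96.2 and 93.0 CPM at ZT8 and at 120, 116 and 110 CPM at ZT20 in wild-type, and at 91.5, 94.4 and 90.9 CPM and 118, 108 and 100 CPM in Rev-erbα-/-. In neither genotype did the times overlap. The log2 fold change was 0.31 ± 0.07 (SE, edgeR adjusted p = 0.00437) in wild-type, in all 19 alternative fits below 0.05, and 0.24 ± 0.07 (edgeR adjusted p = 0.0293) in Rev-erbα-/-, where the call was lost in 6 of 19, among them the fits without any 1 of the Rev-erbα-/- livers at ZT8 and without replicate 1 or 2 at ZT20. The window printed for Stat2 above holds its ISRE core upstream of the start.

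The RNA sensors Ddx58 (RIG-I) and Dhx58 (LGP2), which detect viral RNA in the cytoplasm, rose in Rev-erbα-/-. Dhx58 was at 9.40, 8.89 and 8.08 CPM at ZT8 and at 28.0, 17.9 and 12.0 CPM at ZT20, a log2 fold change of 1.14 ± 0.25 (SE, edgeR adjusted p = 0.00912). Ddx58 was at 42.2, 36.8 and 33.9 CPM at ZT8 and at 71.6, 55.1 and 43.7 CPM at ZT20, a log2 fold change of 0.59 ± 0.15 (edgeR adjusted p = 0.0184). In both genes the times did not overlap, and the values at ZT20 had the order described above. In wild-type, Dhx58 was at 9.95, 10.4 and 8.80 CPM at ZT8 and at 13.9, 12.1 and 11.2 CPM at ZT20, and Ddx58 at 43.5, 45.3 and 41.1 CPM and 45.3, 44.2 and 36.7 CPM, and neither passed (edgeR adjusted p = 0.329 and 0.867). The difference between the genotypes did not pass for Dhx58 (-0.78 ± 0.35, edgeR adjusted p = 0.239) or for Ddx58 (-0.64 ± 0.22, edgeR adjusted p = 0.114). The Ddx58 call was lost without Rev-erbα-/- replicate 2 or 3 at ZT8, and both calls were lost when only the Rev-erbα-/- livers were fitted. Dhx58 lies 1920 kb from Nr1d1 on chromosome 11, and the part of sequence linked to the Rev-erbα-/- allele was not tested.

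Gbp7, a guanylate-binding protein of the interferon-γ response, fell in wild-type from 17.5, 21.5 and 21.3 CPM at ZT8 to 13.2, 12.9 and 12.2 CPM at ZT20, with no overlap. The log2 fold change was -0.65 ± 0.22 (SE, edgeR adjusted p = 0.0466), and the call was lost in 10 of 19 alternative fits, among them those without wild-type replicate 2 or 3 at ZT8, without any 1 wild-type liver at ZT20, without Rev-erbα-/- replicate 2 or 3 at ZT8 or replicate 2 at ZT20, and without both livers with high Saa1. In Rev-erbα-/- it was at 19.1, 13.8 and 15.2 CPM and at 20.9, 15.7 and 10.0 CPM, and the times overlapped. Oas2, a synthetase of the RNase L pathway, was at 3.78, 5.53 and 6.20 CPM at ZT8 and at 2.84, 4.11 and 3.94 CPM at ZT20 in wild-type. These values overlapped and did not pass (log2 fold change -0.50 ± 0.20, edgeR adjusted p = 0.0772).

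The library that weighed on the comparison at ZT20 weighed here too. Without Rev-erbα-/- replicate 3 at ZT20, 14 of the 35 genes rose with time in Rev-erbα-/- (13.5% of all genes passed in either direction). They included the 4 above and Ifit1, Ifit3, Irf9, Irgm1, Isg15, Mx2, Parp14, Rsad2, Rtp4 and Usp18. In wild-type, the same fit, which shares the spread estimate, called 10 of the 35 and 27.4% of all genes. The fit without Rev-erbα-/- replicate 1 at ZT20 called 7 of the 35 in wild-type, and also 27.4% of all genes.

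**Figure D4:**
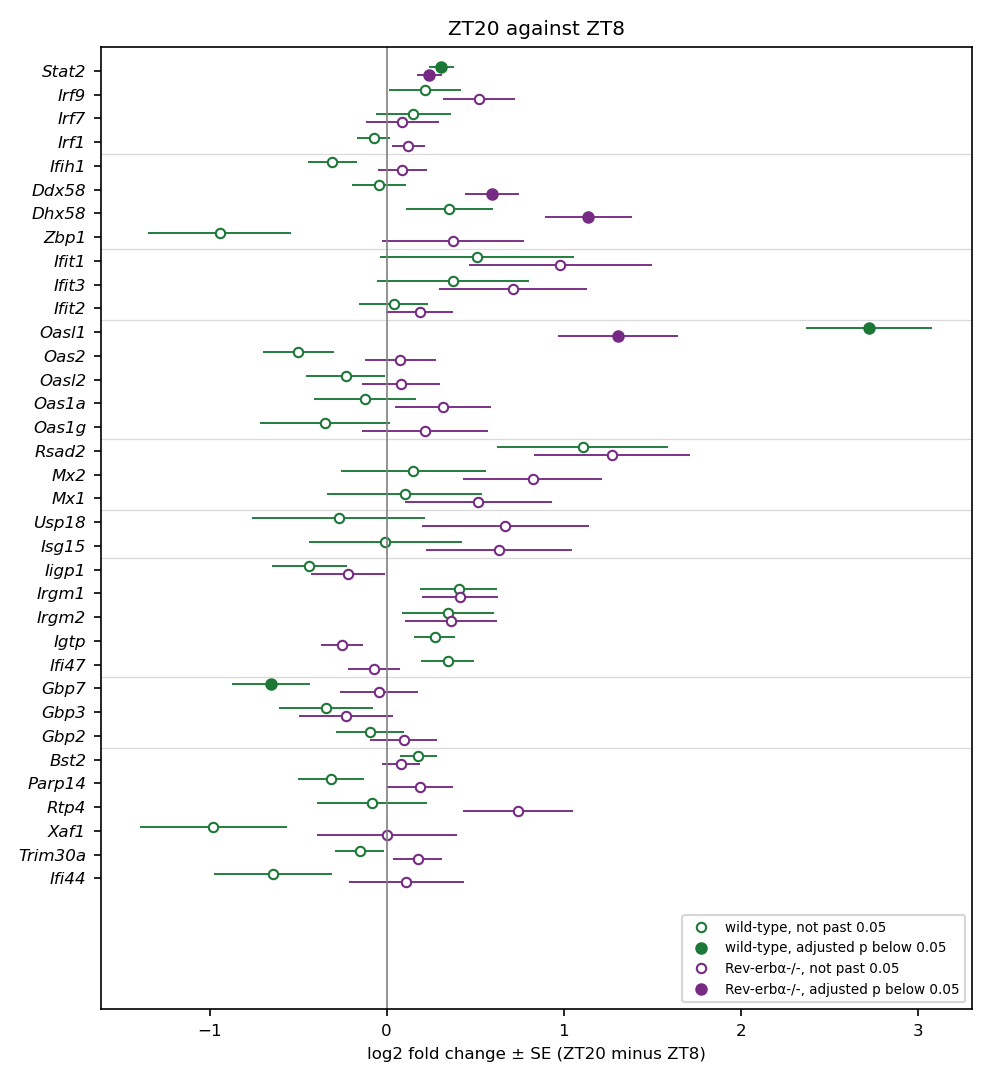
Log2 fold change of each interferon-stimulated gene between ZT20 and ZT8 in wild-type (green) and Rev-erbα-/- liver (purple), with the SE of the edgeR fit as bars and filled circles for adjusted p-values below 0.05. Stat2 and Oasl1 are filled in both genotypes, Gbp7 in wild-type, and Ddx58 and Dhx58 in Rev-erbα-/-.

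Genes upstream of the 35 were followed as lists. Of 20 interferon ligand genes, 18 had no read in any library, and the other two, Ifng and Ifnk, gave 16 reads in all, at most 3 in a library. A count of 0 allows up to 3 reads, which is 0.115 to 0.170 CPM at these depths, so that uniquely aligned ligand reads were not detectable above this level. Alignments to more than 1 place were not counted, so a count of 0 sets no such limit for ligand genes with close copies. Of 5 receptor genes tested, 1 passed at ZT8 (8.45% of all genes) and 0 at ZT20 (3.63% of all genes). Ifngr2, the signalling chain of the interferon-γ receptor, was at 23.7, 26.7 and 27.2 CPM in wild-type and at 15.2, 19.2 and 21.9 CPM in Rev-erbα-/- at ZT8, with no overlap (log2 difference -0.46 ± 0.12, edgeR adjusted p = 0.0234). Without both wild-type livers with high Saa1, the value was -0.34 with an adjusted p of 0.405 in edgeR, and the call was also lost without wild-type replicate 2 or 3 or Rev-erbα-/- replicate 1 or 2 at ZT8. In wild-type it fell with time by 0.65 ± 0.12 on the log2 scale, to 15.0, 16.8 and 17.5 CPM (edgeR adjusted p = 0.000679).

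Irf2, which occupies the same elements as Irf1 and is known as its antagonist, was lower in Rev-erbα-/- at both times and was the only gene called between the genotypes at either time among 16 of signal transduction. At ZT8 it was at 61.6, 54.5 and 55.2 CPM in wild-type and at 36.8, 35.8 and 36.5 CPM in Rev-erbα-/-. At ZT20 it was at 48.4, 53.1 and 53.2 CPM in wild-type and at 37.6, 44.5 and 37.5 CPM in Rev-erbα-/-. All Rev-erbα-/- livers were below all wild-type livers at both times. The log2 fold change was -0.65 ± 0.08 (SE, edgeR adjusted p = 0.000164) at ZT8 and held in all 19 alternative fits, and it was -0.37 ± 0.08 (edgeR adjusted p = 0.0181) at ZT20, where the call was lost in 4 of 19, without wild-type replicate 2 or 3 or Rev-erbα-/- replicate 1 or 3 at ZT20. Irf2 lies at chr8:46739732-46847458. In the 3 Rev-erbα-/- livers at ZT20 it did not have the order of the interferon-stimulated genes.

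In the list of signal transduction, 5 of 16 genes (31.2%) passed with time in wild-type, against 27.7% of all genes, and 3 (18.8%) in Rev-erbα-/-, against 17.5%. They included Tyk2, Ptpn6 and Irf2bp2 in wild-type and Stat3, Irf5 and Ptpn6 in Rev-erbα-/-. The wild-type calls of Tyk2 and Ptpn6 did not hold without both wild-type livers with high Saa1. Of 14 genes of nucleic acid sensing, 2 were higher and 1 lower in Rev-erbα-/- at ZT8 (21.4%, against 8.45% of all genes) and 0 passed at ZT20. Ikbke, a kinase that activates Irf3 and Irf7, was at 25.4, 33.3 and 32.8 CPM in wild-type and at 17.8, 20.8 and 22.97 CPM in Rev-erbα-/- at ZT8 (log2 difference -0.57 ± 0.12, edgeR adjusted p = 0.0108). The adaptors Traf3 and Ticam1 were higher, by 0.45 ± 0.12 and 0.32 ± 0.09 on the log2 scale (edgeR adjusted p = 0.0282 and 0.0361). None of these 3 calls held without both wild-type livers with high Saa1, and all 3 were lost without wild-type replicate 2 alone. At ZT8, that of Traf3 was also lost without wild-type replicate 1 or 3 or Rev-erbα-/- replicate 2 or 3, and that of Ticam1 without wild-type replicate 3, Rev-erbα-/- replicate 2 or 3, or replicate 2 of either genotype at ZT20. With time, 3 of the 14 passed in wild-type (21.4%, against 27.7% of all genes) and 2 in Rev-erbα-/- (14.3%, against 17.5%). Ikbke rose with time in both genotypes. Tlr3, a receptor for double-stranded RNA, rose with time in Rev-erbα-/- and Trim25, a ligase that activates RIG-I, fell with time in wild-type. The call of Trim25 did not hold without both wild-type livers with high Saa1.

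**Figure D5:**
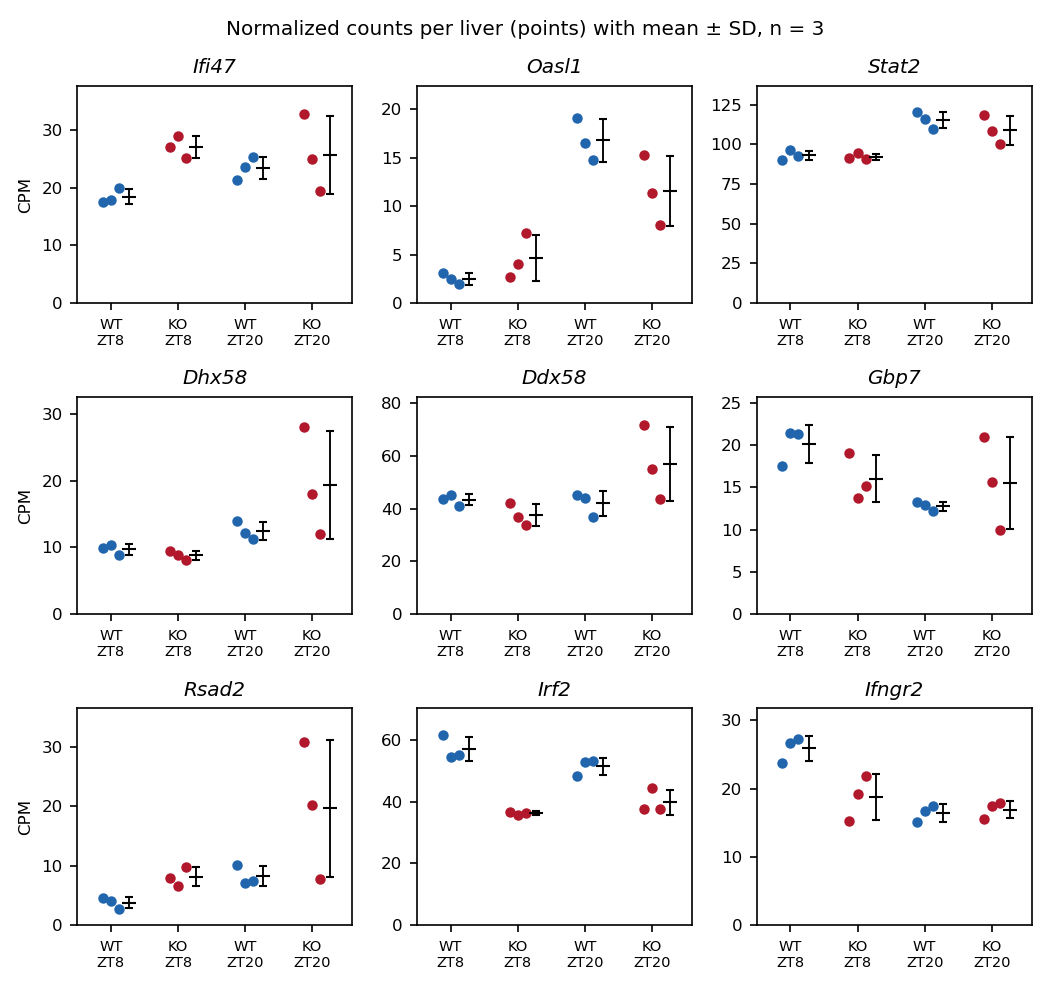
CPM of 9 genes in each liver (points, wild-type blue and Rev-erbα-/- red, replicates 1 to 3 from left to right) with the mean and SD of 3 livers (black), each panel on its own axis from 0. The red points of Irf2 lie below the blue ones at both times, Oasl1 is higher at ZT20 in both genotypes, and the red points of Rsad2 at ZT20 reach from 7.78 to 30.9 CPM.

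Of 65 other genes that answer to interferon, 3 were higher in Rev-erbα-/- at ZT8 and 0 lower (4.62%, against 8.45% of all genes), with a median log2 fold change of -0.02. At ZT20, 1 was higher and 2 lower (4.62%, against 3.63%), with a median of 0.26. Averaged over the times, 5 were higher and 2 lower (10.8%, against 6.34%), with a median of 0.17. These averaged calls also draw on the wild-type livers with high Saa1, and apart from that of Tor3a they did not hold without both. Without both wild-type livers with high Saa1, none of the calls at ZT8 held. The median log2 fold change was then 0.02 at ZT8, 0.26 at ZT20 and 0.19 averaged. Tor3a was at 5.69, 6.23 and 6.46 CPM in wild-type and at 8.05, 10.0 and 13.9 CPM in Rev-erbα-/- at ZT8, with no overlap (log2 difference 0.80 ± 0.16, edgeR adjusted p = 0.00589). Helz2, a helicase that works as a coactivator, was at 131, 141 and 145 CPM and at 171, 182 and 193 CPM (0.39 ± 0.11, edgeR adjusted p = 0.0385). Both calls were lost without the 2 livers with high Saa1 (that of Helz2 also without any 1 of the 6 livers at ZT8 or replicate 2 of either genotype at ZT20), and both genes rose with time in wild-type. With time, 3 of the 65 rose and 8 fell in wild-type and 8 rose and 3 fell in Rev-erbα-/- (16.9% in each, against 27.7% and 17.5% of all genes). Among them were Cxcl11 (higher at ZT20 in both genotypes), Epsti1 and Parp10 (lower in wild-type) and Pml (higher in Rev-erbα-/-). The wild-type calls of Cxcl11 and Parp10 did not hold without both livers with high Saa1.

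In antigen presentation, 2 of 23 MHC class I genes were higher and 1 lower in Rev-erbα-/- at ZT8 (13.0%, against 8.45% of all genes), and 1 was higher at ZT20 (4.35%, against 3.63%). Those at ZT8 were B2m, H2-Q6 and Tapbp, and 0 of 23 passed there without both wild-type livers with high Saa1. The gene at ZT20 was Psmb9, a subunit of the immunoproteasome, with 8.28, 10.0 and 9.66 CPM in wild-type and 15.8, 13.0 and 12.0 CPM in Rev-erbα-/- (log2 fold change 0.55 ± 0.11, edgeR adjusted p = 0.0131). This call was lost without wild-type replicate 1 or Rev-erbα-/- replicate 1 at ZT20. With time, 14 of the 23 passed in wild-type (60.9%, against 27.7% of all genes) and 5 in Rev-erbα-/- (21.7%, against 17.5%). Without the 2 livers with high Saa1, 6 passed in wild-type, against 11.9% of all genes, and Psmb9 was not among them. In wild-type, the immunoproteasome subunits Psmb8, Psmb9 and Psmb10 and the peptide transporter Tap2 fell with time, by 0.81, 0.59, 0.65 and 0.45 on the log2 scale, while the class I genes H2-Q6 and H2-Q7, which are close copies, rose by 1.97 and 1.08 (edgeR adjusted p between 2.58e-08 and 0.00131). In Rev-erbα-/-, H2-Q6 rose by 1.19 and Psmb8 and Psmb10 fell by 0.49 and 0.37. Of the 8 MHC class II genes, none passed in any of the 6 comparisons in edgeR. Of 20 acute phase genes, 10 were lower in Rev-erbα-/- at ZT8 (8.45% of all genes), among them Saa1, Saa2, Saa3, Saa4, Orm2 and Il1rn. Without the 2 livers with high Saa1, 0 of the 20 passed at ZT8. Saa4 did not have the pattern of Saa1, with 538, 504 and 476 CPM in wild-type and 340, 361 and 290.1 CPM in Rev-erbα-/- at ZT8. It was called lower at ZT8 (log2 fold change -0.62 ± 0.13, edgeR adjusted p = 0.00727), at ZT20 (-0.51 ± 0.13, edgeR adjusted p = 0.0366) and averaged (-0.56 ± 0.09, edgeR adjusted p = 0.0013). Without the 2 livers, its value at ZT8 was -0.71 (edgeR adjusted p = 0.0599).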

How the data were processed

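The authors made libraries from liver RNA, mapped reads of at most 75 bases to mm10 with TopHat and counted them per gene symbol with HTSeq (uniquely mapped reads, alignment quality of at least 10, strand ignored). The deposited values are raw counts without normalization. Per the submitters' processing notes, SAMtools and DESeq2 1.6.3 were also used. The 5 summary lines of each table were left out, among them reads outside genes, which equalled 9.66% to 11.49% of the counted reads.

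Genes were filtered with filterByExpr and scaled by TMM, and 4 group means were fitted over 12 libraries in edgeR 4.0.16 (R 4.3.3) with the robust quasi-likelihood method and F tests, adjusted by Benjamini-Hochberg over 14488 genes. The p-values rest on a spread between mice that is estimated over all 4 groups of 3. Those of a comparison therefore also carry the scatter of groups outside it. For 3 mice against 3, an exact permutation test cannot go below 0.1. A count of 3 was taken as the floor. Alternatives were DESeq2 1.42.0, its size factors, other filters, a replicate block, fits of only the groups compared, and leaving out libraries.

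The 35 genes and all lists were chosen with earlier results of these data known. Values per library are given for genes called in any comparison, filled to 10 by adjusted p, and from each list up to 6 called genes were named. Gene positions are from GENCODE M21 (GRCm38), promoters from RefSeq.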

Additional observations from a re-analysis of the deposited data

Results flagged for a closer look

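In the edgeR test of the difference itself, the genotype effect at ZT8 differed from that at ZT20 for 852 of 14488 genes (5.88%), and 5 of the genes whose values are given here were among them. Trim34a and Tapbp, from the same lists, also passed. The effect at ZT8 minus that at ZT20, on the log2 scale, was 5.20 for Arntl, -1.12 for Epsti1, 0.78 for H2-Q6, -2.07 for Il1rn and -0.49 for Tap2, with edgeR adjusted p-values of 3.93e-11, 0.0488, 0.0122, 0.0217 and 0.0171. Il1rn is an acute phase gene and was at 1.35, 2.49 and 2.80 CPM in wild-type replicates 1, 2 and 3 at ZT8. Without both wild-type livers with high Saa1, the difference was 4.93 for Arntl, which still passed (edgeR adjusted p = 3.11e-09), and -1.07 for Epsti1, 0.68 for H2-Q6, -1.39 for Il1rn and -0.43 for Tap2, which did not (edgeR adjusted p = 0.19, 0.136, 0.229 and 0.151).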

How the results depend on the processing

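Of the 35 genes, the number called changed with these settings. For Rev-erbα-/- against wild-type at ZT8 (1 called), it was 3 with DESeq2, 2 without a filter, 3 with only the groups compared (10.4%, 5.26% and 5.59% of all genes) and 0 without both wild-type livers with high Saa1, a setting chosen after seeing the data. At ZT20 (0 called) it was 1 with only the groups compared (Igtp, lower, with 4.38% of all genes). Averaged over the times (0 called) and for the difference of the effects (0 called), DESeq2 gave 4 and 1 (8.1% and 7.62% of all genes). With time it was 13 in wild-type (3 called) and 0 in Rev-erbα-/- (4 called) with only the groups compared, where 26.8% and 16.3% of all genes passed, and 7 in Rev-erbα-/- with DESeq2 (17.9% of all genes).

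Leaving out each library in turn gave 0 to 3 at ZT8 (3 without Rev-erbα-/- replicate 3 at ZT20, where Ifi47, Irf7 and Rsad2 passed), 0 to 16 at ZT20, 0 to 15 averaged, 0 to 9 for the difference, 2 to 10 with time in wild-type and 1 to 14 in Rev-erbα-/-. The highest number came each time without Rev-erbα-/- replicate 3 at ZT20. In that fit 8.28%, 3.11%, 5.92%, 5.17%, 27.4% and 13.5% of all genes passed, in the same order. With the replicate number as a block, 0 were called at ZT8, 1 at ZT20 (Ddx58), 0 averaged, 1 for the difference (Ddx58), 3 with time in wild-type and 3 in Rev-erbα-/-. In the same order, 8.35%, 3.31%, 6.07%, 5.74%, 26.8% and 16.6% of all genes passed with this block. Libraries with the same number did not deviate together (mean correlation -0.0183, from -0.0954 to 0.102). The labels do not say whether the numbers pair the animals, and these correlations cannot exclude it.

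The direction turned for Zbp1 at ZT8 (0.59), Zbp1 with time in wild-type (0.24) and Saa1 with time in wild-type (0.17) without both livers with high Saa1. With single libraries left out, the change with time in Rev-erbα-/- ranged from -0.021 to 1.08 for Usp18 and from -0.0587 to 0.41 for Parp14 (lowest without Rev-erbα-/- replicate 1 at ZT20, highest without replicate 3), and from -0.51 to 0.0293 for Iigp1 (lowest and highest likewise). The cause was not tested. With 3 mice per group, the scatter of Rev-erbα-/- livers at ZT20 limits what can be called there, and levels below 0.115 to 0.170 CPM were not measurable.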
